A study of Mus musculus with 6 samples.

Results

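The genes described here are 39 genes for nucleolar proteins, ribosomal RNA (rRNA) processing factors and RNA polymerase I components, together with Myc. They were taken by symbol from a list, which gave 40 of the 44788 entries of the count table, and all 40 were among the 15362 genes with enough counts to be tested. RNA was sequenced from cultured chondrocytes, the cells that make cartilage, taken from the femoral epiphysis of C57BL/6 mice at postnatal day 1. There were 3 groups of 2 libraries. In the first, cells had 10 µM gefitinib, an inhibitor of the kinase of the epidermal growth factor receptor (EGFR), for 30 min and then gefitinib with 10 ng/ml transforming growth factor alpha (TGF-alpha), a ligand of that receptor, for 48 h. In the second, cells had 10 ng/ml TGF-alpha for 48 h, and in the third, the control, vehicle for 48 h. All 3 groups were in medium with 10% serum and 0.1% DMSO according to the treatment protocol, whereas the design text names PBS for the control, and serum itself carries growth factors. A group with gefitinib alone was not analysed here, so the effect of the inhibitor without ligand was not measured. The passage or day meant by the label P2 is not explained.

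Ribosomes are built in the nucleolus. RNA polymerase I transcribes a long precursor rRNA, small nucleolar RNA-protein particles (snoRNPs) modify it, and assembly factors cut and fold it into the small and the large subunit with the ribosomal proteins. Myc is a transcription factor that binds the E-box sequence CACGTG and is known to raise the transcription of many genes of this pathway in growing cells. In cartilage, growth depends on both the division of chondrocytes and the matrix that they make, and both need ribosomes.

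Depth ran from 12317407 to 16096263 counts per library, in which 20600 to 21067 genes were detected. The replicates of each group differed beyond counting noise (chi-square over genes at 3.03 to 3.83 times its degrees of freedom). No label states that replicates came from separate cultures or animals, so p-values measure only how far these samples differ, and that spread may be technical. Of 14 chondrocyte markers 13 were tested, with up to 741765 counts in a library, and all 13 fell with TGF-alpha against control. None of 8 endothelial and 6 red blood cell markers had enough counts to be tested, with at most 8 and 6 counts in a library, and 4 of the endothelial markers were at 0 in all 6 libraries. Of 8 macrophage markers, Emr1, Ptprc and Itgam were at 0 in all 6 libraries and 4 were tested, of which Cd68 and Cd14 rose and Lyz2 fell with TGF-alpha against control. Cd68 had 32 and 37 counts with TGF-alpha plus gefitinib, 114 and 134 counts with TGF-alpha, and 15 and 30 counts in control. In bulk samples, fewer cells of a type and less RNA per cell cannot be told apart.

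With TGF-alpha, 17 of the 40 genes fell against control and 0 rose, where 14% of all tested genes fell and 15.9% rose (edgeR quasi-likelihood test, adjusted p under 0.05). With TGF-alpha plus gefitinib against TGF-alpha alone, 15 of the 40 rose and 0 fell, where 17% of all tested genes rose and 16.9% fell. With TGF-alpha plus gefitinib against control, 1 gene rose and 2 fell, where 5.27% of all tested genes rose and 4.26% fell. In either direction, the called shares of all tested genes were 29.9%, 34% and 9.52% in these comparisons, beside 17, 15 and 3 of the 40 genes. These 3 comparisons share libraries, so they are not independent of each other. The falls with TGF-alpha lay between 12.8% for Ncl and 41.7% for Rrp12. The median log2 fold change of the 40 genes was -0.20 for TGF-alpha against control, beside 0.00 for all tested genes. It was 0.15 for TGF-alpha plus gefitinib against TGF-alpha and -0.05 for TGF-alpha plus gefitinib against control, beside 0.01 and 0.00 for all tested genes. The median against control with gefitinib present changed sign with the scaling, at 0.02 when libraries were scaled by total counts, and was -0.09 without control replicate 1 and -0.01 without control replicate 2.

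Summed over the 40 genes, the level was 2152 and 2118 CPM (counts scaled to a common library size by the TMM method) in the libraries with TGF-alpha plus gefitinib, 1977 and 1942 CPM with TGF-alpha, and 2234 and 2261 CPM in control. After this scaling the TGF-alpha libraries were the lowest pair and the control libraries the highest, without overlap between groups. As a share of all counts, without TMM scaling, the 40 genes took 0.2178% and 0.215% with TGF-alpha plus gefitinib. The share was 0.1995% and 0.198% with TGF-alpha, and 0.2151% and 0.2205% in control. By share the TGF-alpha pair was again the lowest, but the other groups overlapped. Gene by gene, both TGF-alpha libraries lay below the other 4 libraries for 21 of the 40 genes, against 22.3% of all tested genes. They lay above the other 4 for 1 gene, Fbl, against 23.4% of all tested genes. Compared only with control, both TGF-alpha libraries were lower for 25 of the 40 genes (31.3% of all tested genes) and higher for 3 (32.8%). Both libraries with TGF-alpha plus gefitinib were higher than both TGF-alpha libraries for 23 genes (33.5% of all tested genes) and lower for 7 (32.3%). Set against control, they were higher for 6 genes (26.5% of all tested genes) and lower for 15 (25.6%).

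**Figure D1:**
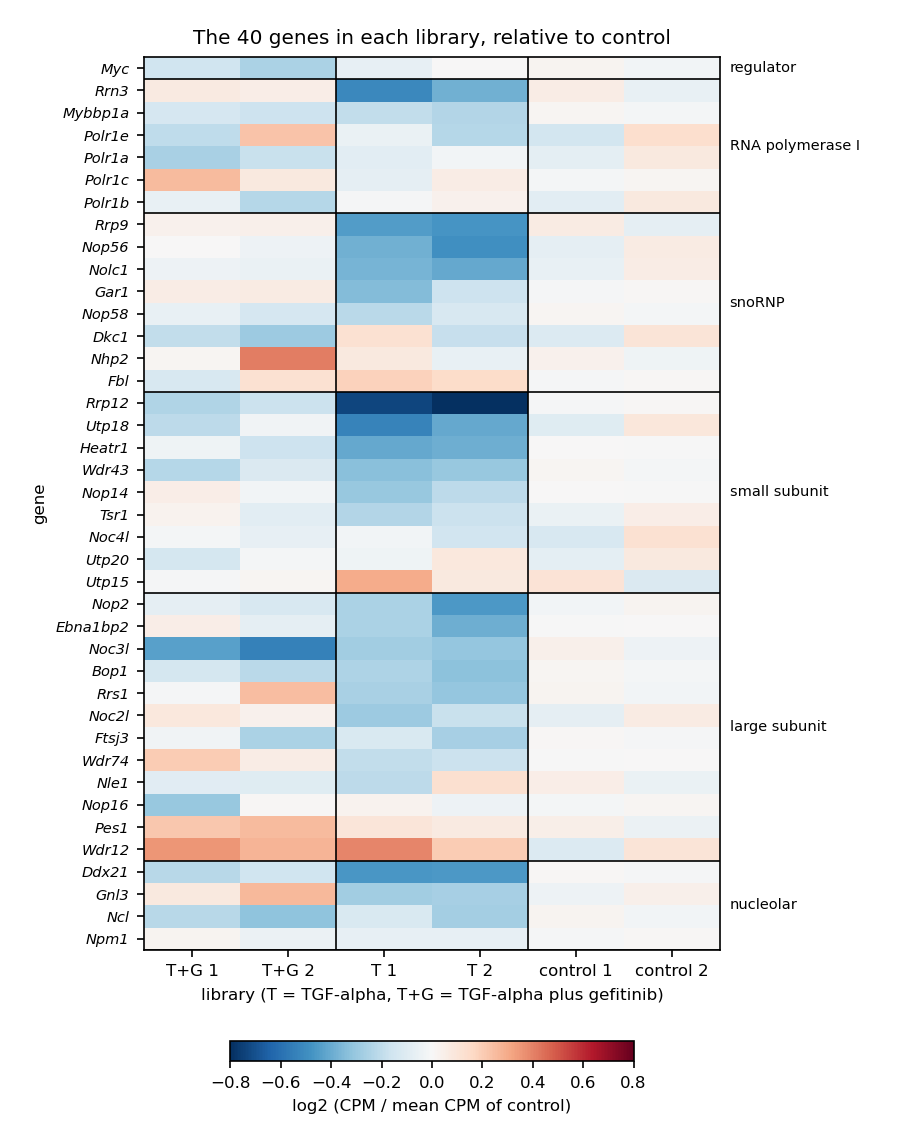
Level of each of the 40 genes in each of the 6 libraries, as the log2 ratio to the mean CPM of the control libraries (blue lower, red higher), with genes grouped by role. The middle pair of columns, TGF-alpha, is blue for most genes, and both of its libraries lie below the other 4 for 21 of the 40 genes.

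Myc itself did not pass the test in any comparison. It had 49.9 and 46.7 CPM with TGF-alpha plus gefitinib, 53.1 and 55.8 CPM with TGF-alpha, and 56.4 and 54.9 CPM in control. The TGF-alpha libraries overlapped with the control libraries, and the libraries with gefitinib were the lowest pair, without overlap with either other group. The log2 fold change with TGF-alpha against control was -0.03 ± 0.07 (SE), with a 95% interval of -0.18 to 0.12 and an edgeR adjusted p of 0.787. It was -0.17 ± 0.07 for TGF-alpha plus gefitinib against TGF-alpha (adjusted p = 0.0812) and -0.20 ± 0.07 for TGF-alpha plus gefitinib against control (adjusted p = 0.0941). The Myc gene lies at chr15:61985391-61990374 in GRCm38, and its mRNA level says nothing on the amount or activity of the Myc protein, which was not measured.

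Of the 6 RNA polymerase I genes, Rrn3 and Mybbp1a fell with TGF-alpha and Rrn3 rose with TGF-alpha plus gefitinib against TGF-alpha. These were 33.3% and 16.7% of the 6, where 14% of all tested genes fell and 17% rose. Rrn3 encodes the initiation factor, also called TIF-IA, that makes the polymerase competent to start on the rRNA gene promoter and is known as a target of growth factor signalling. It had 51.7 and 50.9 CPM with TGF-alpha plus gefitinib, 34.4 and 37.6 CPM with TGF-alpha, and 51.1 and 47.1 CPM in control. The TGF-alpha pair was the lowest, and the other 4 libraries overlapped. It fell by 26.6% with TGF-alpha against control (log2 fold change -0.45 ± 0.08, edgeR adjusted p = 0.00061) and was 42.5% higher with TGF-alpha plus gefitinib than with TGF-alpha (log2 0.51 ± 0.08, adjusted p = 0.000168). Mybbp1a, a nucleolar protein that binds the polymerase and is known to restrain rRNA synthesis, had 198 and 194 CPM with TGF-alpha plus gefitinib, 190.2 and 185 CPM with TGF-alpha, and 220.5 and 216 CPM in control. Its level was highest in control, and it fell by 13.9% with TGF-alpha (adjusted p = 0.00338). Its change with gefitinib present was 0.06 ± 0.05 against TGF-alpha, with an adjusted p of 0.348.

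The subunits of the enzyme did not pass the test in any of the 3 comparisons. Polr1a and Polr1b, which encode the pair of large subunits that form the catalytic core, had log2 fold changes of -0.06 ± 0.07 and 0.01 ± 0.11 with TGF-alpha against control, with 95% intervals of -0.20 to 0.09 and -0.23 to 0.25. Polr1c, a subunit that RNA polymerase I shares with RNA polymerase III, had -0.01 ± 0.08, and Polr1e, which encodes a subunit involved in initiation and elongation, had -0.14 ± 0.17. Polr1a had 66.6 and 70.7 CPM with TGF-alpha plus gefitinib, 75.2 and 78.6 CPM with TGF-alpha, and 75.6 and 84.2 CPM in control. Its libraries with gefitinib were the lowest pair in these values, with an adjusted p of 0.0611 against control.

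The promoters of the 40 genes were read from RefSeq, build GRCm38.p6, as windows of 300 bases (250 before the transcription start and 50 after it). Windows were matched by symbol for 34 of the 40 genes, all but Myc, Npm1, Fbl, Rrs1, Rrp12 and Bop1. The promoter of Rrn3 (chr16:13780449-13780748, plus strand) is shown whole, because its window held the most E-boxes of the windows read. Capitals mark the E-box CACGTG, at 2 places, and the ETS factor motif CCGGAAGT, here on the other strand as ACTTCCGG.
Rrn3: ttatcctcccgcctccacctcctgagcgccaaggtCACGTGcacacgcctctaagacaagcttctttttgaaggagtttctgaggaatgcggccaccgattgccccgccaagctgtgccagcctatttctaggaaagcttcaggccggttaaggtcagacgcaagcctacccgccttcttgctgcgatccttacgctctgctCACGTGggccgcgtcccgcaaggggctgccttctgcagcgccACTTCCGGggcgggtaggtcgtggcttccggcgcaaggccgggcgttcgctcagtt

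The E-box CACGTG, which reads the same on both strands, was in the window of 9 of the 34 genes (26.5%), beside 11.8% of 9760 tested genes and 8.09% of all 27025 genes with a window. Besides Rrn3, 4 of the genes that fell with TGF-alpha had it. The sites are shown in capitals with up to 10 bases on each side, on the strand of the gene, in GRCm38.p6.
Nop2 (chr6:125131813-125131838, plus strand): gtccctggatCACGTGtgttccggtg
Mybbp1a (chr11:72441357-72441376, plus strand): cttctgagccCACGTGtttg
Utp18 (chr11:93885771-93885796, minus strand): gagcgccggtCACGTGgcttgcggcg
Wdr43 (chr17:71616222-71616247, plus strand): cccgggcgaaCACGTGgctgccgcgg
The other 4 were in genes that were not called for TGF-alpha against control.
Pes1 (chr11:3963967-3963992, plus strand): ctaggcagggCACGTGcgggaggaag
Tsr1 (chr11:74898094-74898119, plus strand): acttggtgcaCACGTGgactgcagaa
Utp20 (chr10:88826765-88826787, minus strand): gcactaactaCACGTGaggaaaa
Nle1 (chr11:82908357-82908382, minus strand): ggttctcctcCACGTGgggacgcagg
Of the 9 genes with an E-box, 5 fell with TGF-alpha, and of the 25 genes with a window and no E-box, 10 fell. The median log2 fold changes were -0.22 with an E-box and -0.19 without one. With TGF-alpha plus gefitinib against TGF-alpha, 2 of the 9 and 11 of the 25 rose. Of all tested genes, 14% fell in the first of these comparisons and 17% rose in the second.

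The ETS motif CCGGAAGT, searched on both strands, was in the window of 10 of the 34 genes (29.4%), beside 8.88% of tested genes and 4.31% of all genes with a window. ETS factors are a family of transcription factors of which several are known to be phosphorylated by kinases downstream of EGFR. With TGF-alpha plus gefitinib against TGF-alpha, 6 of the 10 genes with the motif rose and 7 of the 24 genes with a window and no motif did. Of all tested genes 17% rose. Polr1e, Nhp2, Tsr1 and Polr1c also held the motif and were not called in this comparison. A link between the motif and the change was not tested. The 6 were Rrn3, shown above, and the following, with the motif in capitals.
Heatr1 (chr13:12395349-12395376, plus strand): tagtgagaagCCGGAAGTtcctatgagg
Noc2l (chr4:156236003-156236030, plus strand): cattctgggcCCGGAAGTgcggcgcacg
Ebna1bp2 (chr4:118620786-118620813, plus strand): aacgagaaaaCCGGAAGTgcggctatga
Wdr74 (chr19:8735802-8735829, plus strand): tagtggcgcgCCGGAAGTgcaagccacg
Gar1 (chr3:129831423-129831450, minus strand): gcgccgccacACTTCCGGaaacgtcgcg
With TGF-alpha against control, 4 of the 10 genes with the motif and 11 of the 24 without it fell, where 14% of all tested genes fell. In Rrn3 and Tsr1, which held both motifs, the sites did not overlap. The TATA box TATAAA was in the window of 2 of the 34 genes (5.88%), beside 8.47% of tested genes. The median GC content was 59.7% for the windows of the 34 genes and 61.0% for those of the tested genes. A match describes the letters only, and binding was not measured.

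Of the 8 snoRNP genes, 3 fell (37.5%) with TGF-alpha and 4 rose (50%) with TGF-alpha plus gefitinib against TGF-alpha. Of all tested genes 14% fell and 17% rose in these comparisons. Nop56 encodes a core protein of the box C/D particles, which guide the methylation of rRNA. It had 64.0 and 62.0 CPM with TGF-alpha plus gefitinib, 48.8 and 45.4 CPM with TGF-alpha, and 60.8 and 66.7 CPM in control. The TGF-alpha libraries were lowest and the others overlapped. Its log2 fold change was -0.44 ± 0.07 with TGF-alpha against control (edgeR adjusted p = 0.00032) and 0.42 ± 0.07 with TGF-alpha plus gefitinib against TGF-alpha (adjusted p = 0.000452). Rrp9, which is specific to the U3 snoRNP that starts the cutting of the precursor, had 30.7 and 30.9 CPM with TGF-alpha plus gefitinib, 21.995 and 21.7 CPM with TGF-alpha, and 31.5 and 28.6 CPM in control. It fell by 27.2% with TGF-alpha (log2 -0.46 ± 0.10, adjusted p = 0.00201) and was 41.1% higher with gefitinib present (log2 0.50 ± 0.10, adjusted p = 0.000967). Nolc1, a nucleolar phosphoprotein that escorts snoRNPs, had 95.6 and 94.6 CPM with TGF-alpha plus gefitinib, 75.9 and 74.0 CPM with TGF-alpha, and 94.2 and 102 CPM in control. This was a fall of 23.7% with TGF-alpha (adjusted p = 0.000193), and the level with gefitinib present was 26.9% higher than with TGF-alpha alone (adjusted p = 0.000558). For all 3 genes the TGF-alpha pair did not overlap with the other 4 libraries.

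The partners of Nop56 in the box C/D core did not pass the test. Nop58 had 40.6 and 38.6 CPM with TGF-alpha plus gefitinib, 36.5 and 38.7 CPM with TGF-alpha, and 42.7 and 41.9 CPM in control, a log2 fold change of -0.17 ± 0.08 with TGF-alpha (adjusted p = 0.131). Fbl, which encodes fibrillarin, the methyltransferase of these particles, had 10.3 and 12.2 CPM with TGF-alpha plus gefitinib, 12.8 and 12.4 CPM with TGF-alpha, and 11.2 and 11.3 CPM in control. Its TGF-alpha libraries were the highest pair by a small margin, with a log2 fold change of 0.16 ± 0.14 and an interval of -0.14 to 0.46. In the box H/ACA particles, which guide pseudouridine formation, Gar1 had 20.01 and 20.1 CPM with TGF-alpha plus gefitinib, 15.1 and 17.2 CPM with TGF-alpha, and 19.1 and 19.4 CPM in control. It rose with gefitinib present against TGF-alpha (log2 0.31 ± 0.11, adjusted p = 0.0425), while its change with TGF-alpha against control was -0.25 ± 0.11 (adjusted p = 0.107). The rise of Gar1 was lost under 8 of the 15 alternative settings. Dkc1, the pseudouridine synthase of these particles, and Nhp2, a core protein, were not called, with log2 fold changes of -0.03 and 0.01 with TGF-alpha against control.

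**Figure D2:**
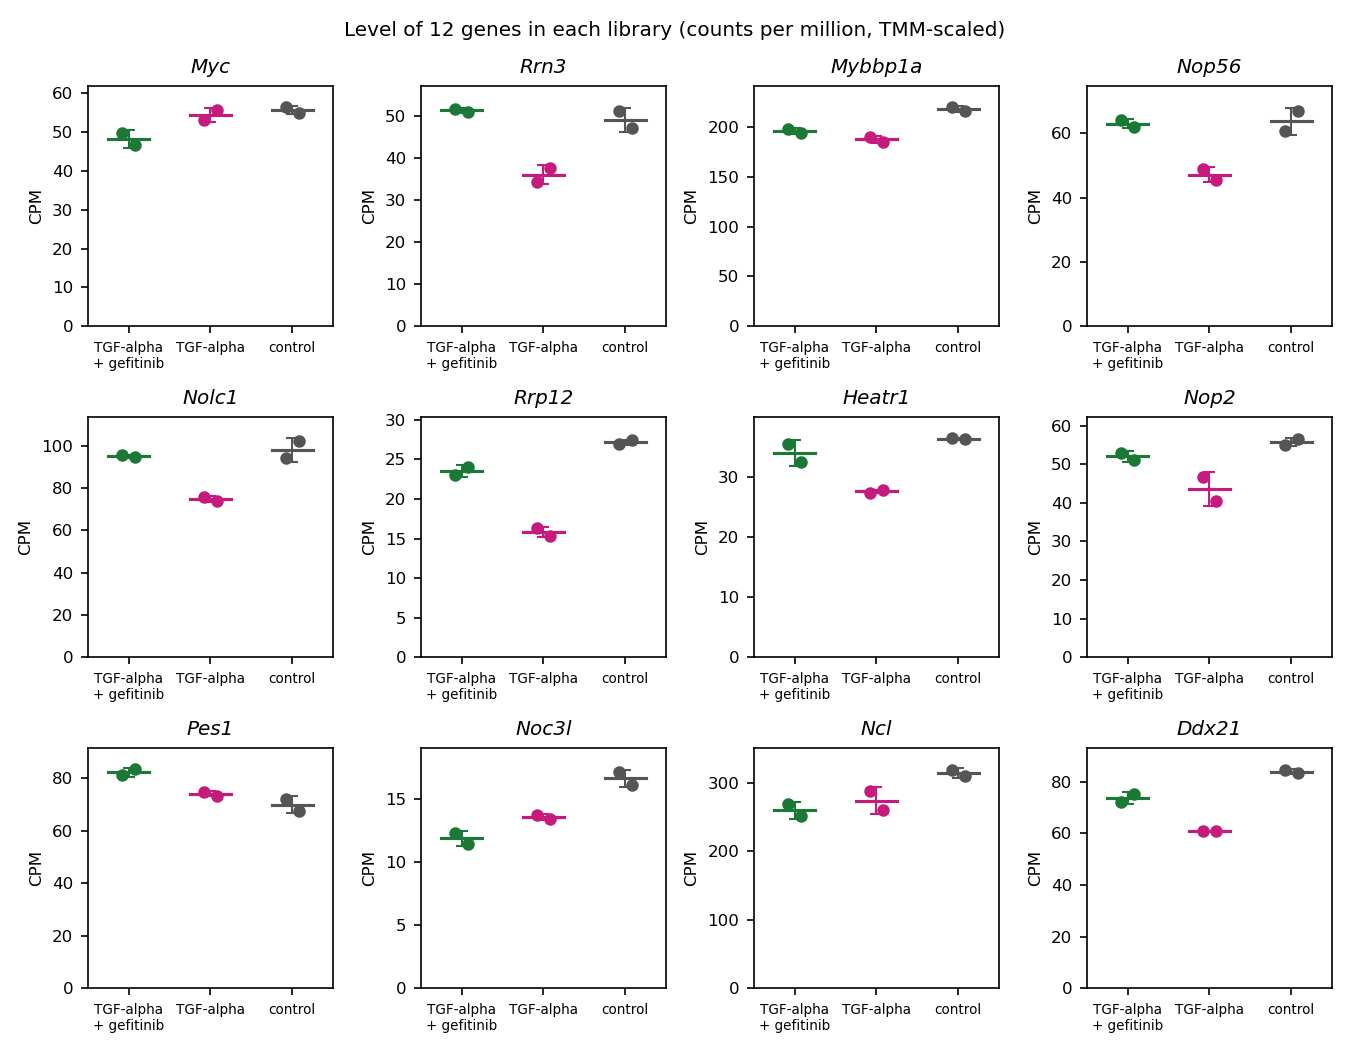
Level in CPM (from 0 on the vertical axis) of 12 of the genes in each library, with points for libraries, lines for group means and bars for 1 SD of 2 libraries, in the order TGF-alpha plus gefitinib, TGF-alpha and control. For Rrn3, Mybbp1a, Nop56, Nolc1, Rrp12, Heatr1, Nop2 and Ddx21 both TGF-alpha points lie below the other 4. The TGF-alpha points of Myc overlap with its control points.

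Of the 9 genes for processing of the small subunit, 5 fell (55.6%) with TGF-alpha and 3 rose (33.3%) with gefitinib present. Of all tested genes 14% fell and 17% rose in these comparisons. Rrp12 had the largest change of the 40 genes in both comparisons. Its protein is needed for the maturation and nuclear export of the small subunit precursor, and the gene lies at chr19:41862851-41896173 in GRCm38. It had 23.0 and 24.1 CPM with TGF-alpha plus gefitinib, 16.3 and 15.3 CPM with TGF-alpha, and 26.9 and 27.4 CPM in control. The 3 groups did not overlap, with TGF-alpha lowest and control highest. It fell by 41.7% with TGF-alpha against control (log2 fold change -0.78 ± 0.10, edgeR adjusted p = 3.38e-05). With TGF-alpha plus gefitinib it was 48.7% higher than with TGF-alpha (log2 0.57 ± 0.10, adjusted p = 0.000596), and -0.21 on the log2 scale against control (adjusted p = 0.222).

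Heatr1, Utp18 and Wdr43 encode parts of the small subunit processome, the large particle that forms on the early precursor. Heatr1 had 35.5 and 32.4 CPM with TGF-alpha plus gefitinib, 27.3 and 27.8 CPM with TGF-alpha, and 36.4 and 36.2 CPM in control, with TGF-alpha lowest and no overlap. It fell by 24.2% with TGF-alpha (edgeR adjusted p = 0.0031) and was 23.3% higher with gefitinib present (adjusted p = 0.0171). Wdr43 had 39.8 and 42.9 CPM with TGF-alpha plus gefitinib, 36.9 and 37.7 CPM with TGF-alpha, and 47.1 and 46.0 CPM in control. Its 3 groups did not overlap either, and it fell by 19.8% with TGF-alpha (adjusted p = 0.00629), while the difference with gefitinib present, 0.15 ± 0.08, had an adjusted p of 0.175. Utp18, at 9.64 ± 0.842 CPM with TGF-alpha plus gefitinib, 7.53 ± 0.453 CPM with TGF-alpha and 10.5 ± 0.981 CPM in control (SD, n = 2 each), had few counts and an adjusted p of 0.038 for its fall of 28.1%. Nop14, which joins the processome with Noc4l, had 51.9 and 49.1 CPM with TGF-alpha plus gefitinib, 40.5 and 43.1 CPM with TGF-alpha, and 50.03 and 49.8 CPM in control. It fell by 16.2% with TGF-alpha (adjusted p = 0.0177) and was 20.8% higher with gefitinib present (adjusted p = 0.0111), with the TGF-alpha pair below the other 4 libraries.

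Other genes of the small subunit were near the threshold or far from it. Tsr1, which acts on the late precursor in the cytoplasm, had 57.1 and 52.8 CPM with TGF-alpha plus gefitinib, 47.5 and 49.6 CPM with TGF-alpha, and 53.9 and 57.9 CPM in control. Its TGF-alpha pair was the lowest, and its adjusted p of 0.0504 for TGF-alpha against control was just above 0.05. Tsr1 shares 32.3% of its exon bases with Srr on the opposite strand, and whether counting used strand is not given in the sources used here. Unscaled, Srr had 593 and 567 counts with TGF-alpha plus gefitinib, 517 and 489 with TGF-alpha, and 559 and 702 in control. The TGF-alpha pair was thus the lowest in Srr too, and its part in the values of Tsr1 was not tested. Noc4l, Utp20 and Utp15 had log2 fold changes of -0.09 ± 0.11, 0.02 ± 0.08 and 0.20 ± 0.13 with TGF-alpha against control, all with intervals that span 0.

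Of the 12 genes for assembly of the large subunit, 4 fell (33.3%) with TGF-alpha and 5 rose (41.7%) with gefitinib present. Of all tested genes 14% fell and 17% rose in these comparisons. Nop2, an rRNA methyltransferase long used as a marker of proliferating cells, had 53.0 and 51.01 CPM with TGF-alpha plus gefitinib, 46.7 and 40.5 CPM with TGF-alpha, and 54.9 and 56.4 CPM in control. It fell by 21.7% with TGF-alpha (log2 -0.35 ± 0.08, edgeR adjusted p = 0.00341) and was 19.2% higher with gefitinib present (adjusted p = 0.0244). The TGF-alpha replicates differed from each other more than the replicates of the other groups did. Ebna1bp2, an assembly factor of the early large subunit precursor, had 55.1 and 50.6 CPM with TGF-alpha plus gefitinib, 44.7 and 40.5 CPM with TGF-alpha, and 53.2 and 53.2 CPM in control, a fall of 19.9% with TGF-alpha (adjusted p = 0.00575). With gefitinib present it was 24.2% higher than with TGF-alpha (adjusted p = 0.00639), and the TGF-alpha pair did not overlap with the other 4 libraries. Noc2l, which in yeast forms export complexes of the large precursor with the Noc3l counterpart, had 117 and 113 CPM with TGF-alpha plus gefitinib, 89.9 and 97.0 CPM with TGF-alpha, and 104.6 and 115 CPM in control. It fell by 15.0% (adjusted p = 0.0128) and was 22.6% higher with gefitinib present (adjusted p = 0.00261), with the TGF-alpha pair lowest and the other groups overlapping.

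Rrs1 and Wdr74 passed the test only in the comparison with gefitinib, and the difference between comparisons was not tested. Rrs1, which brings the 5S rRNA particle into the precursor in yeast, had 28.4 and 33.9 CPM with TGF-alpha plus gefitinib, 23.9 and 23.0 CPM with TGF-alpha, and 29.0 and 28.1 CPM in control. Its log2 fold change was 0.40 ± 0.10 for TGF-alpha plus gefitinib against TGF-alpha (edgeR adjusted p = 0.00767) and -0.28 ± 0.10 for TGF-alpha against control (adjusted p = 0.0559). Wdr74, a large subunit maturation factor, had 38.0 and 34.5 CPM with TGF-alpha plus gefitinib, 28.9 and 29.4 CPM with TGF-alpha, and 33.0 and 33.2 CPM in control. The corresponding values were 0.32 ± 0.09 (adjusted p = 0.0125) and -0.18 ± 0.09 (adjusted p = 0.145). In both genes the TGF-alpha pair was the lowest.

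Of the 3 genes of the PeBoW complex, which is needed for processing of the large subunit rRNA, only Bop1 passed the test with TGF-alpha against control. Bop1 had 43.8 and 41.5 CPM with TGF-alpha plus gefitinib, 40.6 and 38.4 CPM with TGF-alpha, and 48.8 and 47.6 CPM in control, and it fell by 18.03% with TGF-alpha against control (edgeR adjusted p = 0.0106). Pes1 had 81.2 and 83.5 CPM with TGF-alpha plus gefitinib, 74.8 and 73.4 CPM with TGF-alpha, and 72.2 and 67.7 CPM in control. Here the gefitinib libraries were highest and the control libraries lowest, without overlap between groups. Pes1 was the only one of the 40 genes that rose with TGF-alpha plus gefitinib against control, by 17.8% (log2 0.24 ± 0.06, adjusted p = 0.0281), and that call was lost under 6 of 15 alternative settings. Wdr12 had 13.5 and 12.7 CPM with TGF-alpha plus gefitinib, 13.8 and 12.1 CPM with TGF-alpha, and 9.76 and 11.3 CPM in control, with control lowest and log2 fold changes of 0.30 ± 0.14 with TGF-alpha against control (adjusted p = 0.137) and 0.31 ± 0.14 with TGF-alpha plus gefitinib against control (adjusted p = 0.202).

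Noc3l was lowest in the libraries with gefitinib. It had 12.3 and 11.4 CPM with TGF-alpha plus gefitinib, 13.7 and 13.4 CPM with TGF-alpha, and 17.1 and 16.1 CPM in control, without overlap between groups. It fell by 28.4% with TGF-alpha plus gefitinib against control (log2 -0.48 ± 0.12, edgeR adjusted p = 0.0227), and its change with TGF-alpha alone was -0.29 ± 0.12 (adjusted p = 0.0849). The first call was lost under 4 of 15 alternative settings. Nop16, Nle1 and Ftsj3, which act on the large subunit precursor, had log2 fold changes of -0.01 ± 0.10, -0.03 ± 0.14 and -0.19 ± 0.08 with TGF-alpha against control, none past the threshold.

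Of the 4 abundant nucleolar proteins, 3 fell (75%) with TGF-alpha and 2 rose (50%) with gefitinib present. Of all tested genes 14% fell and 17% rose in these comparisons. Ddx21, an RNA helicase of the nucleolus that takes part in rRNA transcription and processing, had 71.9 and 75.2 CPM with TGF-alpha plus gefitinib, 60.8 and 60.9 CPM with TGF-alpha, and 84.6 and 83.2 CPM in control. All 3 groups were apart, with TGF-alpha lowest and control highest. It fell by 27.4% with TGF-alpha (log2 -0.46 ± 0.06, edgeR adjusted p = 3.92e-05) and was 20.9% higher with gefitinib present (log2 0.27 ± 0.06, adjusted p = 0.00345). Gnl3, which encodes nucleostemin, a GTP-binding protein of proliferating cells, had 41.2 and 46.8 CPM with TGF-alpha plus gefitinib, 32.2 and 32.4 CPM with TGF-alpha, and 37.9 and 40.2 CPM in control. It fell by 17.2% (adjusted p = 0.0307) and was 35.9% higher with gefitinib present (adjusted p = 0.00124). Its groups did not overlap, with TGF-alpha lowest and gefitinib highest.

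Ncl and Npm1 encode nucleolin and nucleophosmin, abundant RNA-binding proteins of the nucleolus. Ncl had 269 and 251 CPM with TGF-alpha plus gefitinib, 288 and 260.1 CPM with TGF-alpha, and 319 and 309 CPM in control, with control highest and the other groups overlapping. It fell by 12.8% with TGF-alpha (edgeR adjusted p = 0.016) and by 17.2% with TGF-alpha plus gefitinib (adjusted p = 0.00705), both against control, and its difference between the treated groups was -0.07 ± 0.06 (adjusted p = 0.346). Npm1 had 168 and 160.2 CPM with TGF-alpha plus gefitinib, 157 and 157 CPM with TGF-alpha, and 164 and 166 CPM in control, and its log2 fold change of -0.07 ± 0.05 with TGF-alpha had an interval of -0.18 to 0.04. Per length of transcript, Npm1 had 101 RPKM (CPM per kilobase of transcript) in control, Mybbp1a 50.1 RPKM and Myc 23.8 RPKM. The lengths used for Ncl, Nop58 and Wdr12 are of long annotated transcripts, so their values per length are uncertain and the 40 genes are not ranked.

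**Figure D3:**
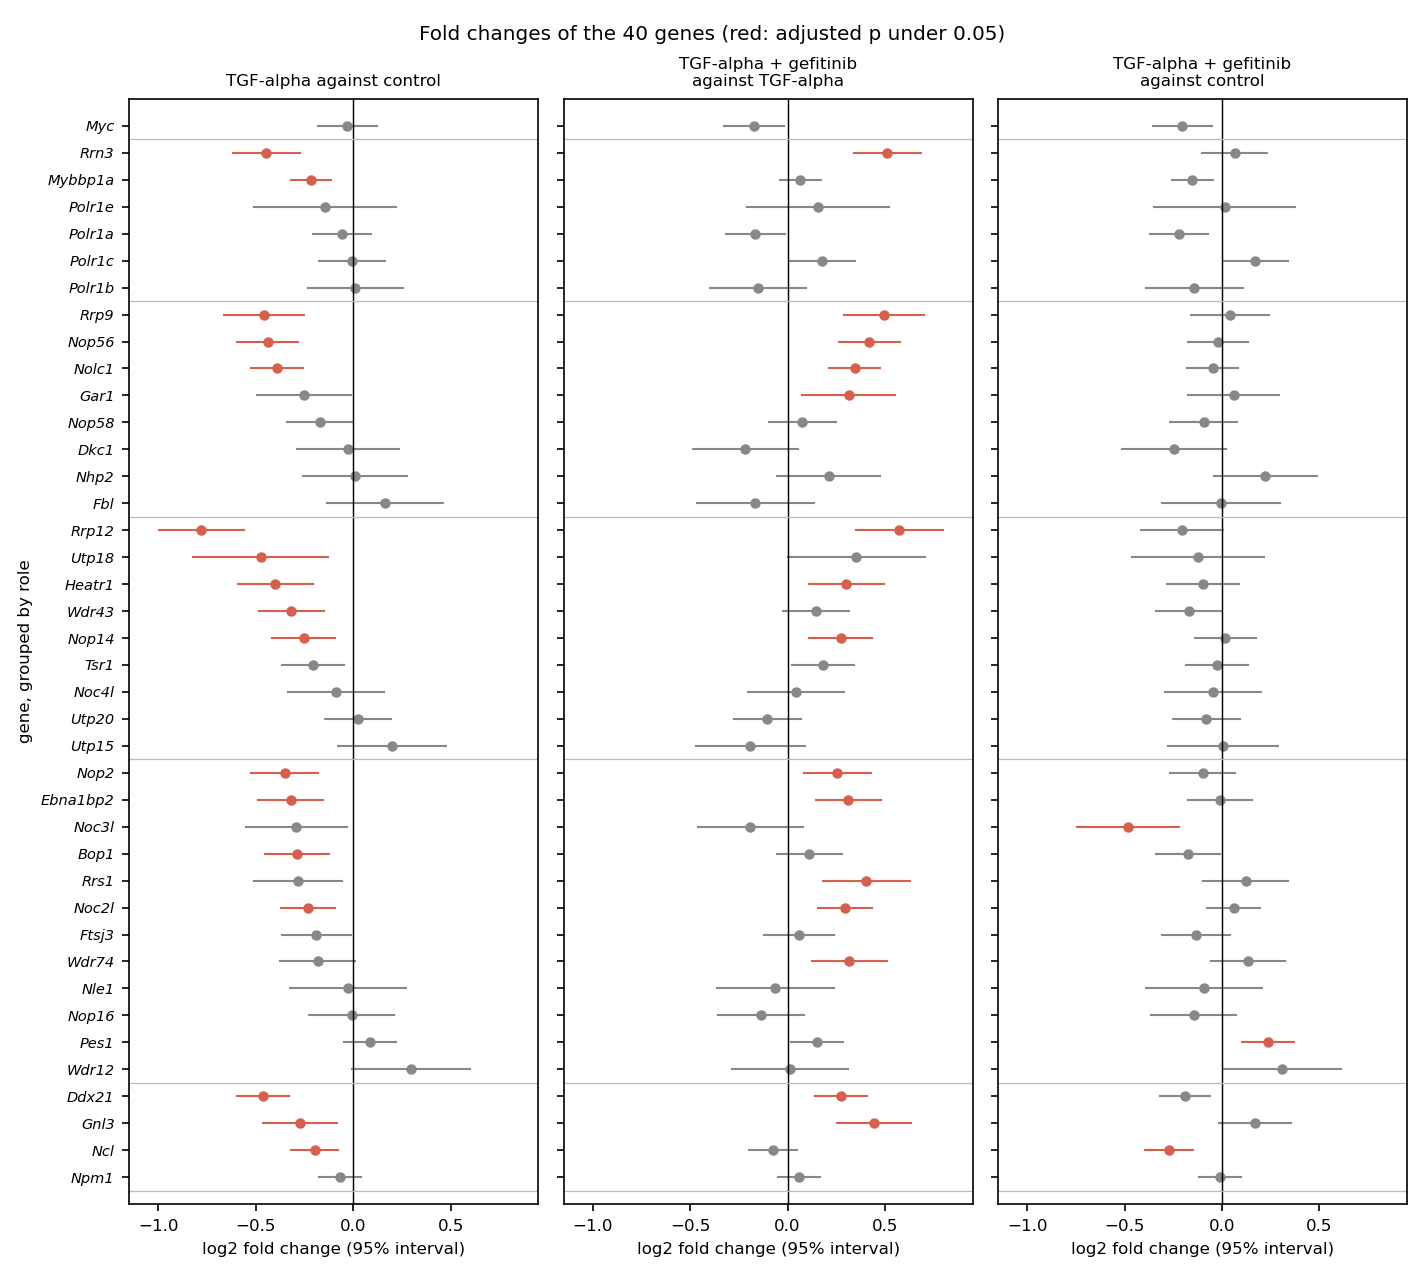
Log2 fold change of each of the 40 genes with its 95% interval in the 3 comparisons, grouped by role, with red points for an adjusted p under 0.05. Red points are left of 0 for 17 genes with TGF-alpha against control and right of 0 for 15 genes with TGF-alpha plus gefitinib against TGF-alpha, and 3 are red with TGF-alpha plus gefitinib against control.

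The calls depended in part on the settings, and fits without 1 library of a compared group also called fewer of all tested genes. For TGF-alpha against control, 9 of the 17 falls were called under all 15 alternative settings (Rrn3, Mybbp1a, Nop56, Nolc1, Rrp9, Heatr1, Wdr43, Rrp12 and Ddx21). The median log2 fold change of the 40 genes in this comparison ran from -0.23 to -0.19 when single libraries were left out. For TGF-alpha plus gefitinib against TGF-alpha, 8 of the 15 rises were called under all 15 settings (Rrn3, Nop56, Nolc1, Rrp9, Rrp12, Noc2l, Gnl3 and Ddx21). For TGF-alpha plus gefitinib against control no gene was called under all 15, and without control replicate 1 or without TGF-alpha plus gefitinib replicate 2 none of the 40 was called. The 17, 15 and 3 called genes kept their direction under each of the 15 settings.

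In mammals many snoRNAs are made from the introns of other genes. In GENCODE M21 (GRCm38), 7 of the 40 genes (17.5%) hold an annotated snoRNA gene within their bounds, beside 1.88% of 11976 tested coding genes. They are Nop56, Nop58, Dkc1, Wdr43, Tsr1, Ncl and Gnl3. With TGF-alpha against control, 4 of these 7 and 13 of the other 33 fell, where 14% of all tested genes fell. Noncoding genes whose introns carry snoRNAs were listed separately, and 12 of the 13 in the table were tested. Of them 5 fell (41.7%) and 0 rose with TGF-alpha against control, where 14% of all tested genes fell and 15.9% rose. With TGF-alpha plus gefitinib against TGF-alpha, 4 rose (33.3%) and 0 fell, where 17% of all tested genes rose and 16.9% fell. The median log2 fold changes of the 12 were -0.41 and -0.06, and in the second comparison 6 lay above 0 and 6 below. Gas5 had 264 and 291 CPM with TGF-alpha plus gefitinib, 222 and 205 CPM with TGF-alpha, and 297 and 289 CPM in control. The TGF-alpha pair was the lowest, with a fall of 27.1% against control (edgeR adjusted p = 2.28e-05). Snhg12 had 84.5 and 95.9 CPM with TGF-alpha plus gefitinib, 47.4 and 50.9 CPM with TGF-alpha, and 83.0 and 79.1 CPM in control, and it fell by 39.3% with TGF-alpha (adjusted p = 3.28e-06) and was 83.4% higher with gefitinib present (adjusted p = 3.87e-07).

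In the wider pathway calls went in both directions. Of 127 other ribosome biogenesis genes, 17 fell (13.4%) and 12 rose (9.45%) with TGF-alpha against control, beside 14% and 15.9% of all tested genes. The balance turned when libraries were scaled by total counts, with 7 lower and 16 higher. With TGF-alpha plus gefitinib against TGF-alpha 13 rose (10.2%) and 11 fell (8.66%), where 17% of all tested genes rose and 16.9% fell. With TGF-alpha plus gefitinib against control 1 rose and 1 fell (0.787% each), where 5.27% of all tested genes rose and 4.26% fell. For TGF-alpha against control and for TGF-alpha plus gefitinib against TGF-alpha, fits without 1 library of a compared group called fewer of the 127 genes. These fits also called fewer of all tested genes, and the balance of higher and lower calls among the 127 is uncertain. Summed, these 127 genes had 4251 and 4365 CPM with TGF-alpha plus gefitinib, 4272 and 4246 CPM with TGF-alpha, and 4380 and 4361 CPM in control.

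Of 40 other small subunit genes 8 fell (20%) and 2 rose (5%) with TGF-alpha against control, and of 49 other large subunit genes 7 fell (14.3%) and 1 rose (2.04%), where 14% of all tested genes fell and 15.9% rose. Bysl, an assembly factor of the small subunit, had 35.7 and 33.6 CPM with TGF-alpha plus gefitinib, 21.6 and 23.8 CPM with TGF-alpha, and 34.7 and 36.0 CPM in control. It fell by 35.9% with TGF-alpha (edgeR adjusted p = 9.29e-05) and was 52.9% higher with gefitinib present (adjusted p = 0.000137), with the TGF-alpha pair below the other 4 libraries. Ltv1, which acts in export and maturation of the small subunit, fell by 38.8% with TGF-alpha (adjusted p = 1.37e-05). Of 15 other RNA polymerase I genes 5 rose and 0 fell with TGF-alpha, among them Polr2e, a subunit shared by all 3 nuclear RNA polymerases, and Taf1d, a part of the promoter selectivity factor. Polr2e had 121 and 127 CPM with TGF-alpha plus gefitinib, 137 and 155 CPM with TGF-alpha, and 121 and 119 CPM in control, log2 0.29 ± 0.06 with TGF-alpha against control (adjusted p = 0.00309). Of 9 other snoRNP genes 3 rose and 0 fell, and Znhit6, an assembly factor of box C/D particles, had 12.2 and 13.1 CPM with TGF-alpha plus gefitinib, 27.1 and 23.8 CPM with TGF-alpha, and 15.5 and 16.2 CPM in control. Its log2 fold change was 0.68 ± 0.11 with TGF-alpha (adjusted p = 0.000292) and -1.01 ± 0.12 with gefitinib present against TGF-alpha (adjusted p = 8.37e-06). Of 14 RNA exosome genes, whose products trim and degrade RNA, 1 rose and 2 fell.

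Most genes for the ribosomal proteins themselves were not called, and the same held for all tested genes. Of 79 cytosolic ribosomal protein genes 8 rose (10.1%) and 1 fell (1.27%) with TGF-alpha against control. Of all tested genes, 15.9% rose and 14% fell. With TGF-alpha plus gefitinib against TGF-alpha, 8 rose (10.1%) and 4 fell (5.06%), beside 17% and 16.9% of all tested genes. With TGF-alpha plus gefitinib against control, 11 rose (13.9%) and 0 fell, beside 5.27% and 4.26% of all tested genes. The median log2 fold changes of the 79 genes were 0.08, 0.03 and 0.10 in the same comparisons. Many ribosomal protein genes have near-identical processed copies, so their counts are uncertain where reads could be split between copies. Rpsa, a small subunit protein, had 562 and 593 CPM with TGF-alpha plus gefitinib, 615 and 639 CPM with TGF-alpha, and 551 and 536 CPM in control, log2 0.21 ± 0.05 with TGF-alpha (edgeR adjusted p = 0.00295).

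Genes around Myc were compared as well. Of 17 tested genes for Myc relatives, partners and antagonists 3 rose and 3 fell with TGF-alpha against control, 17.6% each way, close to the 15.9% and 14% of all tested genes. Of the 17, 3 rose (17.6%) and 6 fell (35.3%) with TGF-alpha plus gefitinib against TGF-alpha, where 17% of all tested genes rose and 16.9% fell. Mxd3, which encodes a Max-binding antagonist of Myc that is expressed in cycling cells, had 8.56 and 10.3 CPM with TGF-alpha plus gefitinib, 20.9 and 21.2 CPM with TGF-alpha, and 7.73 and 11.1 CPM in control. The TGF-alpha pair was the highest without overlap, at log2 1.14 ± 0.16 against control (edgeR adjusted p = 5.71e-05) and -1.16 ± 0.16 for TGF-alpha plus gefitinib against TGF-alpha (adjusted p = 4.88e-05). Mxi1, another such antagonist, rose by 43.6% with TGF-alpha (adjusted p = 0.000641), whereas Mxd4, of the same family, fell by 25.3% (adjusted p = 0.000727).

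Of 32 metabolic genes known to be induced by Myc, 9 fell (28.1%) and 4 rose (12.5%) with TGF-alpha against control. Of all tested genes, 14% fell and 15.9% rose. With TGF-alpha plus gefitinib against TGF-alpha, 10 rose (31.2%) and 3 fell (9.38%), where 17% of all tested genes rose and 16.9% fell. The median log2 fold changes of the 32 genes were -0.06 and 0.06 in these comparisons. Odc1, the first enzyme of polyamine synthesis and a classical Myc target, had 85.7 and 86.3 CPM with TGF-alpha plus gefitinib, 57.3 and 52.6 CPM with TGF-alpha, and 100.3 and 99.0 CPM in control. It fell by 44.9% with TGF-alpha against control (log2 -0.86 ± 0.06, edgeR adjusted p = 8.63e-08) and was 56.6% higher with gefitinib present (log2 0.65 ± 0.06, adjusted p = 1.88e-06), with no overlap among the 3 groups. Srm, which makes spermidine in the same pathway, fell by 18.3% (adjusted p = 0.000497), and Mthfd2, a mitochondrial folate enzyme, fell by 43.4% (adjusted p = 5.24e-07). Paics, an enzyme of purine synthesis, had the opposite direction, with 132 and 139.7 CPM with TGF-alpha plus gefitinib, 180.2 and 185 CPM with TGF-alpha, and 135 and 142 CPM in control and a rise of 31.6% with TGF-alpha (adjusted p = 4.92e-05).

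**Figure D4:**
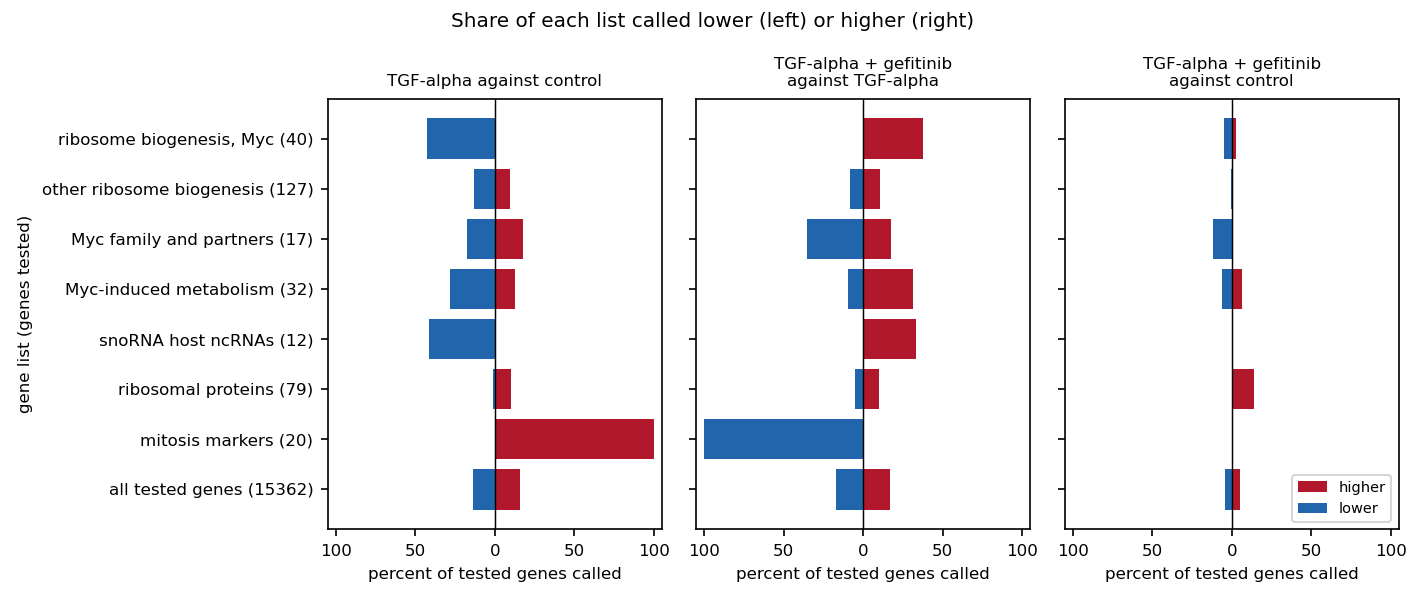
Percent of the tested genes of each list that were called lower (bars to the left of 0) or higher (bars to the right) in the 3 comparisons, with the number of tested genes in brackets and all 15362 tested genes in the bottom bar. For TGF-alpha against control the bar of the 40 genes extends only to the left, to 42.5%, whereas that of the 127 other ribosome biogenesis genes extends to both sides, to 13.4% and 9.45% (7 lower and 16 higher genes when scaled by total counts).

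Other measures moved with the groups, and their part in the results above was not tested. All 20 mitosis markers rose with TGF-alpha against control and fell with TGF-alpha plus gefitinib against TGF-alpha, and none was called for TGF-alpha plus gefitinib against control. Their summed level was 472 to 483 CPM with TGF-alpha plus gefitinib, 1143 to 1253 CPM with TGF-alpha and 509.9 to 531 CPM in control. The summed level of 14 chondrocyte markers was 68175 to 70680 CPM, 38851 to 40036 CPM and 77952 to 83120 CPM in the same 3 groups. The summed level of 8 macrophage markers was 7.61 to 9.75 CPM with TGF-alpha plus gefitinib, 13.0 to 16.9 CPM with TGF-alpha and 5.70 to 6.37 CPM in control, and of the 4 tested 2 rose and 1 fell with TGF-alpha against control. For 8 fibroblast and perichondrium markers it was 8992 to 9149 CPM, 9253 to 9401 CPM and 11912 to 12734 CPM in the same groups, and 2 rose and 3 fell with TGF-alpha against control. For 7 osteoblast markers it was 80.0 to 83.5 CPM, 54.6 to 59.7 CPM and 124 to 128 CPM, and of the 5 tested 2 fell and none rose with TGF-alpha against control. The 8 skeletal muscle markers summed to under 10 CPM in every library. The rRNA-like gene Rn18s-rs5 took 0.657% and 0.786% of counts with TGF-alpha plus gefitinib, 1.21% and 0.851% with TGF-alpha, and 1.39% and 1.36% in control. Counts of this gene do not measure the synthesis of rRNA. When rRNA-like and mitochondrial genes were left out, 18 of the 40 genes fell with TGF-alpha against control and 15 rose with TGF-alpha plus gefitinib against TGF-alpha.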

How the data were processed

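RNA libraries of 6 mouse chondrocyte samples were prepared with standard Ion Proton protocols, per the labels' protocols. The authors deposited 1 table of whole-number read counts per gene, not normalized, with 1 column per library. The submitters' processing notes name the build GRCm38. The sources used here give no aligner, counter, annotation or strand setting.

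These counts were fitted with edgeR 4.0.16 in R 4.3.3. The filter filterByExpr, at a minimum count of 10, kept 15362 of 44788 entries. After TMM scaling, glmQLFit had group as its single term over the 6 libraries and 3 residual degrees of freedom. Each of 3 pairs of groups was tested two-sided with glmQLFTest. p-values were adjusted by Benjamini-Hochberg over all tested genes and called at an adjusted p under 0.05. The SE is the absolute log2 fold change divided by the square root of F, and intervals use 95%. CPM are counts scaled by TMM, and RPKM divide them by the length of the RefSeq-paired GENCODE M21 transcript. Percent changes come from the fitted fold changes. Library totals of 12317407 to 16096263 counts and 2 libraries per group limit the precision.

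Same-numbered replicates did not deviate together (correlations of -0.02, 0.01 and 0.00), so no block was used. The 15 alternatives were other scalings and filters, DESeq2 1.42.0, a replicate block, 2 groups only, leaving out rRNA-like and mitochondrial genes, and leaving out each library. Of the 40 genes all are described. From each other list up to 4 called genes with the smallest p in a comparison could be named, or 2 with the highest level where none was called, and those printed were picked from these after their values were seen. The genes, lists and alternatives were chosen with earlier results of these data known.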

Additional observations from a re-analysis of the deposited data

How the results depend on the processing

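The replicate block changed no call among the 40 genes: 17 were lower with TGF-alpha against control and 15 higher with TGF-alpha plus gefitinib against TGF-alpha, as without the block. Leaving out 1 library at a time gave 11 to 19 lower genes of the 40 for TGF-alpha against control, and 0 to 1 higher and 0 to 2 lower for TGF-alpha plus gefitinib against control. Over all genes tested these fits called 649 to 1291 for TGF-alpha plus gefitinib against control, where all 6 libraries gave 1463. For TGF-alpha against control, fits without 1 library of a compared group also called fewer of all tested genes. Fewer calls among the 40 genes in those fits are thus not particular to these genes. DESeq2 called 3474 genes for TGF-alpha plus gefitinib against TGF-alpha, where edgeR called 5217, and 905 against control, with 0 of the 40 higher and 1 lower. With only the 2 groups compared in the fit, 0 of the 40 were higher against control, and upper quartile scaling gave 5 lower. Scaling by total counts ended 5 of the 17 falls with TGF-alpha (Utp18, Nop14, Noc2l, Ncl and Gnl3). The log2 fold change of Rps16, a ribosomal protein gene, for TGF-alpha plus gefitinib against TGF-alpha ran from -0.44 to 0.33 when single libraries were left out, with the upper end without TGF-alpha plus gefitinib replicate 1. The cause of these changes was not tested. For the 127 other ribosome biogenesis genes, DESeq2 called 4 higher and 5 lower for TGF-alpha against control. Over all genes it called 3114 in this comparison, where edgeR called 4600.

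With 2 libraries per group the low genes are the least certain, such as Utp18 and Wdr12, and an exact permutation test over 2 against 2 libraries cannot go below p = 0.333.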
